A study of Mus musculus with 4 samples.

Results

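The genes described here write, read and erase N6-methyladenosine (m6A), a methyl mark on adenosines of messenger RNA. They are the writers *Mettl3*, *Mettl14* and *Wtap*, the readers *Ythdc1*, *Ythdf1*, *Ythdf2* and *Ythdf3*, and the erasers *Alkbh5* and *Fto*. They were chosen by gene symbol, and all 9 were found among the 11598 genes of the deposited table. Ribosome-protected fragments (RPFs), the stretches of mRNA that a translating ribosome shields from RNase I, were sequenced from leptotene/zygotene spermatocytes, which had been purified by FACS from testes of mice at 12 days postpartum. There were 2 libraries from control mice, which the sample labels call wild type and the study calls littermates, and 2 from *Eef1g*-cKO mice. In the latter, part of *Eef1g* is removed in male germ cells by *Stra8*-GFPCre, a recombinase active from spermatogonia onward, and the floxed line was made on a C57BL/6J background. The floxed and Cre alleles carried by the controls, and the number of animals behind each library, are not given in the sources used here. The comparison asks how ribosome occupancy of these mRNAs differed when eEF1G, a subunit of the translation elongation factor eEF1 complex, was deleted.

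The m6A mark is set in the nucleus by a complex in which METTL3 carries the catalytic activity, METTL14 holds the RNA substrate and WTAP brings the pair to nuclear speckles. Proteins with a YTH domain bind the mark. YTHDC1 does so in the nucleus, where it acts on splicing and export, and the YTHDF proteins do so in the cytoplasm, where they act on mRNA decay and translation. ALKBH5 and FTO are dioxygenases that remove the methyl group. In the male germ line these enzymes and readers are known for their part in the timing of mRNA use, since spermatocytes store many transcripts before they are translated or cleared, and mice without *Alkbh5* have impaired male fertility.

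The annotated start codons of these proteins are shown here, as they open the annotated coding frames. The levels used here are per gene, without positions of fragments, so the use of these start codons was not measured. Each line gives the 9 bases before the start codon, the start codon in capitals and the 3 bases after it, 5′ to 3′ along the mRNA, read from RefSeq transcripts on GRCm38.p6.
*Mettl3*: ggagctaggATGtcg
*Mettl14*: agctggggcATGgat
*Wtap*: gggtgcaagATGacc
*Ythdc1*: agggcagccATGgcg
*Ythdf1*: tcatgaagcATGtcg
*Ythdf2*: ccgagagccATGtcg
*Ythdf3*: cggtgaagaATGtca
*Alkbh5*: gcgggggccATGgcg
*Fto*: agtagcagcATGaag
All 9 carry a purine at the third base before the start codon, as do 86.4% of the 10499 genes of the table with a RefSeq start codon and a leader of at least 9 bases. A G directly after the start codon is present in 3 of the 9, *Mettl14*, *Ythdc1* and *Alkbh5*, against 53.2% of those genes. These are descriptions of the sequence, and no level is derived from them.

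Because the *Ythdf* genes are paralogs, it was checked whether fragments could fall on more than one of them. Fragments of 26 to 34 nt had been size-selected, and no 26-nt window of the coding sequences of *Ythdf1* or *Ythdf3* occurs in a transcript of any other gene in GENCODE release M21. Coding sequences of *Ythdf1* and *Ythdf2* were 67.7% identical, and their longest shared run, in capitals here with 4 flanking bases on either side, is 22 nt, shorter than the shortest fragment.
*Ythdf1*: agccATTGCTAGCAAGCCTGCAAAACcaca
*Ythdf2*: tgatATTGCTAGCAAGCCTGCAAAACaaca
Other genes do share windows with 3 members. Of the 26-nt windows of *Ythdf2*, 40.5% also occur in transcripts of *Gm6823* and *Gm8401*. Transcripts of further genes, among them *Gm14292*, likewise hold 50.0% of the windows of *Wtap*. For *Ythdc1* the share is 28.0%, mostly with *Gm43055*. None of these 4 genes is in the deposited table, and how reads matching several places were treated is not given in the sources used here, so the levels of *Ythdf2*, *Wtap* and *Ythdc1* carry this uncertainty. For *Mettl3*, *Mettl14*, *Alkbh5* and *Fto* no 26-nt window was shared.

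The libraries differed in depth. Abundance is given as FPKM, the reads of a gene per kilobase of its length and 1000000 reads of the library. Control FPKM rested on 2479504 and 1384282 reads and *Eef1g*-cKO FPKM on 223906 and 407979, so that 1 read on 1 kb was worth 0.403 and 0.722 FPKM against 4.47 and 2.45 FPKM. *Eef1g* itself was covered by 107 and 58 control reads, against 0 and 4 after deletion. Markers listed for leptotene/zygotene spermatocytes were present in all libraries (10 of 10 genes, with a summed abundance of 1633 to 2035 FPKM in control and 4198 to 4545 FPKM in *Eef1g*-cKO). Spermatogonial markers, 10 of 10 in the table, went the other way, from 1744 to 2074 FPKM in control to 362 to 403 FPKM in *Eef1g*-cKO. Sertoli cell markers (5 of 6 genes in the table) summed to 517 and 114 FPKM in the control libraries, against 109 and 72.1 FPKM in the others. Pachytene markers (3 of 4 in the table), mostly *H1f6*, summed to 311 to 416 FPKM in control against 1381 to 1483 FPKM in *Eef1g*-cKO. Of these 3, 2 lay above control and 1, *Piwil1*, lay below. *Piwil1* had 8.18 and 2.93 FPKM in control against 1.13 and 1.24 FPKM, on 1 and 2 reads, in *Eef1g*-cKO. The paper detected no spermatocytes positive for H1T, the protein of *H1f6*, in adult *Eef1g*-cKO testes, and places the arrest at zygotene. It also reports comparable enrichment of leptotene/zygotene spermatocytes in the sorted cells of both genotypes. The pachytene sum is therefore given as RPF abundance only, not as a number of pachytene cells. Spermatid markers (3 of 6) summed to 7.38 and 55.3 FPKM against 0 and 15.1 FPKM, and peritubular markers (3 of 4) to 39.4 to 43.8 FPKM against 20.8 to 27.7 FPKM. The Leydig list (3 of 5) summed to at most 5.82 FPKM in any library, *Cyp11a1* and *Hsd3b1* had no read in *Eef1g*-cKO, and 0 of 4 macrophage markers were among the genes of the table. How far these marker differences take part in the values below was not tested. In sorted populations, fewer cells of a type and less RNA per cell cannot be told apart, and a change in RPF abundance cannot be divided here into a change of mRNA and a change of ribosomes per mRNA.

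RPF abundance of *Fto* was lower in *Eef1g*-cKO, and none of the other 8 genes passed the test in either direction. The test was limma, a linear model per gene that borrows the variance of all genes, on log2(FPKM + 1), where a gene was called if its p was under 0.05 and its log2 fold change beyond 1 in size. By unadjusted p it called 1 of the 9 members lower, when 16.3% of the 10475 genes tested were called lower, and 0 of 9 higher, against 7.32% of all genes tested. By Benjamini-Hochberg adjusted p over all genes tested the counts were again 1 lower, against 4.97%, and 0 higher, against 2.87%. No member with a positive change reached an unadjusted p under 0.05 in this fit (with libraries centred on their medians, *Mettl14* did, at 0.0384 for a change of 0.60), and by adjusted p neither edgeR nor DESeq2, both run on the whole read counts recovered from the table, called one higher (0 of 9, against 8.75% and 5.94% of the genes each tested). Both called *Fto* lower, 1 of 9, against 11.2% in edgeR and 5.34% in DESeq2. The 9 genes had a median log2 fold change of 0.35, and 8 of the 9 changes were positive. Over all genes tested the median was −0.23, and 59.1% of the changes were negative. Of the 11598 genes deposited, 2086 and 1452 had no read in the *Eef1g*-cKO libraries, against 22 and 219 in control. Every member had at least 9 reads in each library. No median was taken over genes of similar read number, so a shift of the members as a set was not tested. Together the 9 members took 1016 and 1165 reads per 1000000 library reads in control, against 1192 and 1174 in *Eef1g*-cKO.

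**Figure D1:**
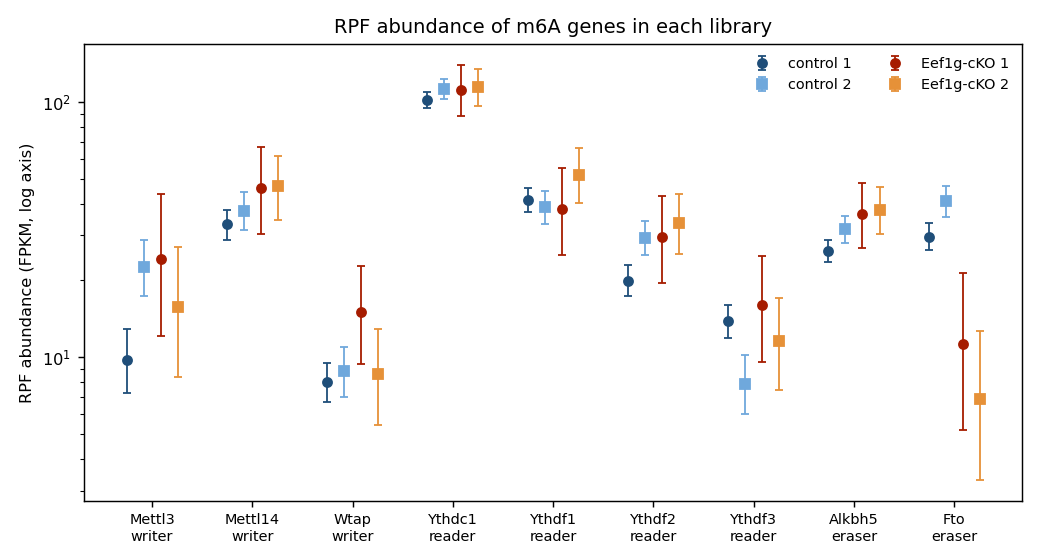
RPF abundance of the 9 m6A genes (FPKM, log axis) in each of the 4 libraries, with control replicates in blue and *Eef1g*-cKO replicates in red and orange; bars are 95% Poisson intervals of the read count and cover counting error only. *Fto* is the only member whose *Eef1g*-cKO values, 11.3 and 6.89 FPKM, lie below both control values, 29.7 and 40.8 FPKM, and its counting intervals do not meet those of control.

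Among the writers, *Mettl14* had both *Eef1g*-cKO libraries above both control libraries, while *Mettl3* and *Wtap* overlapped between genotypes. *Mettl14*, the RNA-binding partner of the catalytic subunit, lies on chromosome 3 of GRCm38 (123368295 to 123385990, minus strand, start codon at chr3:123385825-123385827). It had 33.2 and 37.4 FPKM in control and 45.9 and 46.7 FPKM in *Eef1g*-cKO, from 216 and 136 reads against 27 and 50. Its log2 fold change, 0.38 with a standard error of 0.22 (limma adjusted p = 0.291), did not pass. The 95% interval of this fit, −0.17 to 0.94, left out a doubling. With libraries centred on their medians the change was 0.60, and its interval is not given here.

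*Mettl3*, which encodes the catalytic subunit, lies on chromosome 14 (52294841 to 52308741, minus strand, start codon at chr14:52304985-52304987). It had 9.78 and 22.5 FPKM in control and 24.3 and 15.8 FPKM in *Eef1g*-cKO. The control libraries differed 2.30-fold, which was more than counting error, since their intervals of 7.24 to 12.9 and 17.3 to 28.8 FPKM did not meet. In *Eef1g*-cKO the gene rested on 11 and 13 reads. Its log2 fold change of 0.37 (limma adjusted p = 0.617) had an interval of −0.77 to 1.51, so neither direction nor a doubling could be settled at this depth. Without control replicate 1 the change was −0.19. *Tox4*, annotated on the opposite strand, overlaps the span of *Mettl3* and had 148 to 238 control reads and 28 reads in each *Eef1g*-cKO library.

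*Wtap*, the adaptor of the complex, lies on chromosome 17 (12966799 to 12992543, minus strand, start codon at chr17:12985943-12985945). It had 7.99 and 8.81 FPKM in control and 15.0 and 8.60 FPKM in *Eef1g*-cKO. One *Eef1g*-cKO value exceeded both control values and the other lay between them. Its log2 fold change was 0.40 (interval −0.58 to 1.38, limma adjusted p = 0.528). The ratio of *Mettl3* to *Mettl14* in FPKM was 0.295 and 0.602 in control against 0.529 and 0.338 in *Eef1g*-cKO, so the range of the mutant lay inside that of the controls.

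Of the readers, *Ythdf2* had both *Eef1g*-cKO libraries above both control libraries, and no reader passed the test. *Ythdc1*, the nuclear reader (chromosome 5, 86803980 to 86836659, plus strand, start codon at chr5:86804564-86804566), had the highest FPKM of the 9 genes in every library, with 102 and 113 FPKM in control and 112 and 115 FPKM in *Eef1g*-cKO. It was also the best measured, with 764 and 474 control reads against 76 and 142 from *Eef1g*-cKO. Its log2 fold change was 0.08 (standard error 0.20, limma adjusted p = 0.802), and the interval of −0.40 to 0.56 was the narrowest of the set.

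*Ythdf1*, the cytoplasmic reader best known for promoting translation (chromosome 2, 180904377 to 180920936, minus strand, start codon at chr2:180920708-180920710), had 41.3 and 38.7 FPKM in control and 38.0 and 51.8 FPKM in *Eef1g*-cKO. The genotypes overlapped, and the log2 fold change was 0.15 (interval −0.48 to 0.77, limma adjusted p = 0.722), which became −0.07 without *Eef1g*-cKO replicate 2. *Ythdf2*, which recruits the CCR4-NOT deadenylase to methylated mRNA (chromosome 4, 132184916 to 132212256, minus strand, start codon at chr4:132211924-132211926), had 19.98 and 29.4 FPKM in control and 29.6 and 33.7 FPKM in *Eef1g*-cKO. The lower *Eef1g*-cKO library was almost level with the higher control library, and the log2 fold change of 0.37 (interval −0.35 to 1.08, limma adjusted p = 0.426) did not pass.

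*Ythdf3*, a cytoplasmic reader that can act with both of its paralogs (chromosome 3, 16183148 to 16217037, plus strand, start codon at chr3:16183497-16183499), had 13.8 and 7.88 FPKM in control and 16.0 and 11.5 FPKM in *Eef1g*-cKO. Its control libraries differed 1.75-fold, beyond their counting intervals, and its change of 0.35 (interval −0.64 to 1.33, limma adjusted p = 0.587) became −0.02 without control replicate 2. Within the summed FPKM of the *Ythdf* genes, *Ythdf1* took 55.0% and 50.9% in control against 45.5% and 53.4% in *Eef1g*-cKO, the largest share in every library. *Ythdf2* took 26.6% and 38.7% in control against 35.4% and 34.7% in *Eef1g*-cKO, and *Ythdf3* took 18.4% and 10.4% in control against 19.1% and 11.9% in *Eef1g*-cKO. For *Ythdf2* the *Eef1g*-cKO shares lay between those of the controls, and for *Ythdf3* the ranges overlapped.

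Of the erasers, *Fto* was called lower and *Alkbh5* was not called. *Fto* (chromosome 8, 91313367 to 91668433, plus strand, start codon at chr8:91313576-91313578) encodes a demethylase of m6A that also acts on the methylated adenosine next to the mRNA cap. It had 29.7 and 40.8 FPKM in control and 11.3 and 6.89 FPKM in *Eef1g*-cKO, from 262 and 201 reads against 9 and 10. Both *Eef1g*-cKO values were below both control values, and their counting intervals of 5.17 to 21.4 and 3.30 to 12.7 FPKM did not reach the control intervals of 26.2 to 33.5 and 35.4 to 46.9 FPKM. The means were 35.3 ± 7.86 and 9.09 ± 3.12 FPKM (SD, n = 2 each), 3.88-fold lower in *Eef1g*-cKO. The log2 fold change was −1.86 (standard error 0.35, 95% interval −2.74 to −0.99, limma adjusted p = 0.0405), and 874 of the 10475 genes tested had a change as low or lower. On the recovered reads the adjusted p was 8.67e-04 in edgeR's quasi-likelihood test and 0.00440 in DESeq2.

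The log2 fold change of *Fto* was −2.09 without control replicate 1 and −1.64 without control replicate 2. Without *Eef1g*-cKO replicate 1 it was −2.18, and without *Eef1g*-cKO replicate 2 it was −1.54. A fit that leaves 1 library in a genotype takes its variance from the 2 libraries of the other genotype alone. Its p-values therefore cannot show how far the call rests on a library, and they are not given. Of the 10 spermatogonial markers, 9 were called lower by unadjusted p and 7 by adjusted p in limma, beside 16.3% and 4.97% of all genes tested. The part of that shift in the value of *Fto* was not tested. An antisense gene, *4831440D22Rik*, is annotated within the span of *Fto*, and whether reads were counted by strand is not given in the sources used here.

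*Alkbh5*, the other demethylase (chromosome 11, 60537683 to 60558512, plus strand, start codon at chr11:60538423-60538425), had 26.1 and 31.8 FPKM in control and 36.3 and 37.8 FPKM in *Eef1g*-cKO, from 390 and 265 reads against 49 and 93. Both *Eef1g*-cKO values exceeded both control values, but the log2 fold change of 0.35 (standard error 0.24, interval −0.25 to 0.95, limma adjusted p = 0.364) did not pass. The ratio of *Fto* to *Alkbh5* in FPKM, in which a scaling factor of a library cancels, was 1.14 and 1.28 in control against 0.311 and 0.182 in *Eef1g*-cKO. Its size depends on the length used, and per kilobase of coding sequence it was 0.529 and 0.597 in control against 0.145 and 0.0847 in *Eef1g*-cKO. Summed over both erasers, RPF abundance was 55.8 and 72.6 FPKM in control and 47.6 and 44.7 FPKM in *Eef1g*-cKO. The readers summed to 177 and 189 FPKM in control against 195 and 212 FPKM after deletion, and the writers to 51.0 and 68.8 FPKM against 85.2 and 71.1 FPKM.

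**Figure D2:**
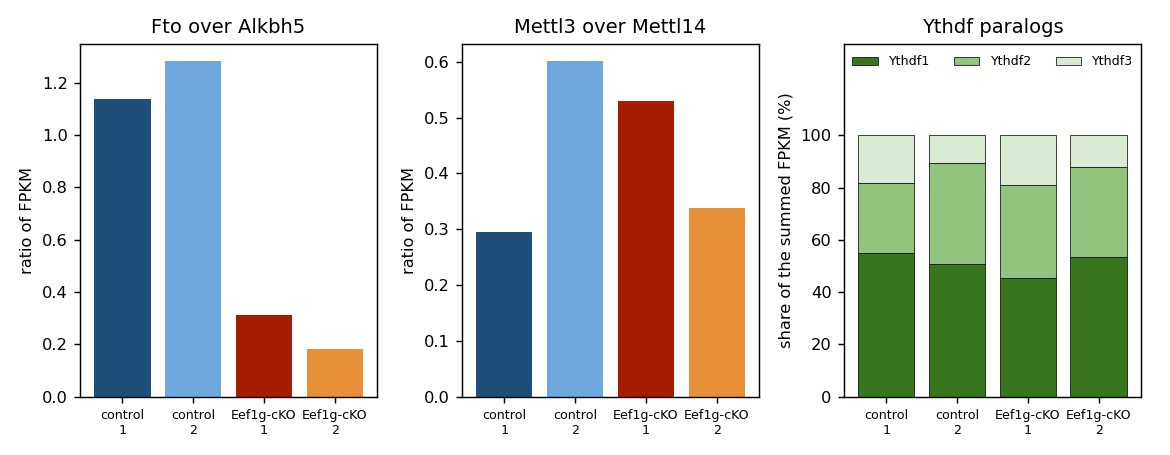
Ratios of FPKM (per full gene length) between paired members in each library (left, *Fto* over *Alkbh5*; middle, *Mettl3* over *Mettl14*) and the shares of the *Ythdf* paralogs in their summed FPKM in percent (right). The ratio of *Fto* to *Alkbh5* is 1.14 and 1.28 in control against 0.311 and 0.182 in *Eef1g*-cKO, while the *Mettl3* ratios of the genotypes overlap and *Ythdf1* holds the largest share in every library.

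In all, 3 members (*Mettl14*, *Ythdf2* and *Alkbh5*) had both *Eef1g*-cKO libraries above both control libraries, against 24.6% of all genes tested, and *Fto* alone had both below, against 37.7%. Of the 8 members without a call, 4 (*Mettl14*, *Ythdc1*, *Ythdf1* and *Alkbh5*) had a 95% interval that stayed within a log2 fold change of 1 in either direction. This count holds for libraries without centring. Centred on their medians, these 4 changed by 0.60, 0.29, 0.36 and 0.57, and those intervals are not given here. For *Mettl3*, *Wtap*, *Ythdf2* and *Ythdf3* the interval reached above 1, so a doubling could not be told from no change at this depth and replication. The counting intervals of the 2 control libraries did not meet for *Mettl3*, *Ythdf2*, *Ythdf3* and *Fto*, whereas those of the shallower *Eef1g*-cKO libraries met for all 9 genes.

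**Figure D3:**
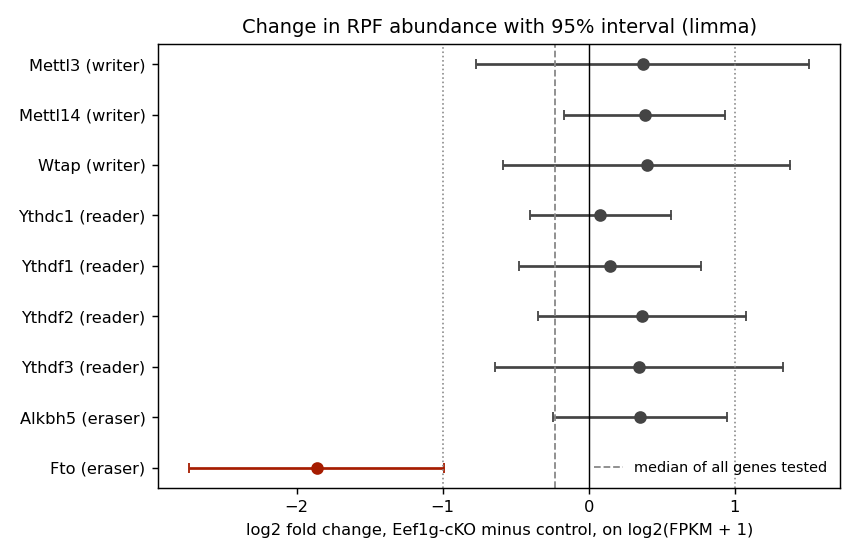
Log2 fold change of each member, *Eef1g*-cKO minus control on log2(FPKM + 1), with its 95% interval from limma; the dashed line is the median of all genes tested, −0.23, and the dotted lines mark a log2 fold change of −1 and 1. *Fto*, in red, is at −1.86, and the other 8 genes lie between 0.08 and 0.40 with intervals that include 0.

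The order of the genes by RPF abundance depended on which length was used. By FPKM, which divides by the full gene length, control followed the order *Ythdc1*, *Ythdf1*, *Mettl14*, *Fto*, *Alkbh5*, *Ythdf2*, *Mettl3*, *Ythdf3* and *Wtap*. In this order only the steps from *Ythdc1* to *Ythdf1* and from *Ythdf1* to *Mettl14* had ranges that did not overlap over the control libraries. Ribosomes cover mainly the coding sequence, which makes up 1188 of 6025 bases in *Alkbh5* and 1191 of 6558 in *Wtap* but 1743 of 2020 in *Mettl3*. Per kilobase of coding sequence, *Alkbh5* came first in control with 147 ± 20.3 reads per 1000000 library reads, followed by *Ythdc1* at 146 ± 10.9, and *Mettl3* came last with 18.7 ± 10.4 (SD, n = 2 each). *Wtap* then had 46.3 ± 3.18 and *Fto* 83.1 ± 18.5 in the same unit. In *Eef1g*-cKO, *Fto* was the lowest of the 9 by both measures, with 9.09 ± 3.12 FPKM or 21.4 ± 7.35 in that unit (SD, n = 2 each), although the next gene above it, *Wtap* by FPKM, overlapped it.

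The wider m6A pathway was followed as a list of 31 further genes, all in the table, of which 30 passed the filter on low values (a mean of at least 1 FPKM). *Igf2bp2*, with 15 and 3 control reads and none after deletion, did not. *Ahcy*, which clears the by-product of methylation, passed the filter through its control values alone, with 9 and 14 control reads and no read in either *Eef1g*-cKO library. As a count of 0 allows up to 3 reads, or 5.27 and 2.89 FPKM there, against 1.43 and 3.98 FPKM in control, it is given no fold and is not counted here. Of the other 29 genes, limma called 3 higher by unadjusted p (*Meioc*, *Mettl5* and *Fmr1*), beside 7.32% of all genes tested, and 3 lower (*Trmt112*, *Srsf3* and *Mat2b*), beside 16.3%. By adjusted p it called 3 higher, beside 2.87%, and 1 lower (*Mat2b*), beside 4.97%. The median log2 fold change of the 29 genes was 0.03. None of the 5 further subunits of the writer complex was called.

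*Ythdc2*, a reader with a helicase domain, works with *Meioc* and *Rbm46* in the switch from mitosis to meiosis, and all 3 had both *Eef1g*-cKO libraries above both control libraries, as did 24.6% of all genes tested. *Meioc*, listed under its older symbol *Gm1564*, had 20.1 and 12.3 FPKM in control and 52.7 and 53.0 FPKM in *Eef1g*-cKO, and rose by 1.68 on the log2 scale (standard error 0.31, limma adjusted p = 0.0379). *Rbm46* had 44.8 and 36.1 FPKM in control and 76.0 and 73.1 FPKM in *Eef1g*-cKO, a log2 fold change of 0.88 (limma adjusted p = 0.0664). *Ythdc2* had 38.9 and 53.8 FPKM in control and 85.8 and 65.8 FPKM in *Eef1g*-cKO, a log2 fold change of 0.70 (limma adjusted p = 0.146). Only the change of *Meioc* passed, and it was 2.02 without control replicate 1 and 1.35 without control replicate 2. The leptotene/zygotene markers moved in the same direction, and their part in these values was not tested. Of 10, 9 had both *Eef1g*-cKO libraries above both control libraries, beside 24.6% of all genes tested. Limma called 5 of 10 higher by unadjusted p, beside 7.32%. The paper names these 5 (*Sycp3*, *Smc1b*, *Dmc1*, *Hormad1* and *Meiob*) among meiotic genes with increased RPFs, for which it proposes altered ribosome progression.

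*Fmr1*, whose product FMRP binds methylated mRNA among other targets, had 119 and 99.7 FPKM in control and 338 and 319 FPKM in *Eef1g*-cKO. The difference was 1.58 on the log2 scale (standard error 0.20, limma adjusted p = 0.0283), and 1.46 to 1.71 with each library left out. *Mettl5*, which methylates 18S ribosomal RNA, had 18.7 and 10.4 FPKM in control and 41.4 and 48.0 FPKM in *Eef1g*-cKO, a log2 fold change of 1.60 (limma adjusted p = 0.0485) that rested on 9 and 19 reads in *Eef1g*-cKO. The adjusted p of *Mettl5* was 0.0953 in DESeq2 and 0.0257 in edgeR, and its limma change was 2.00 and 1.21 without control replicate 1 or 2. *Trmt112*, the cofactor that stabilizes METTL5, had 42.6 and 151 FPKM in control and 13.0 and 14.3 FPKM in *Eef1g*-cKO. The gene rested on only 3 and 6 reads in *Eef1g*-cKO, against 109 and 216 in control. Its log2 fold change of −2.48 passed by unadjusted p and not by adjusted p (limma adjusted p = 0.0561). The adjusted p of *Trmt112* was 0.00345 in edgeR, 0.00557 in DESeq2 and 0.0126 in limma with the replicate number as a block. Same-numbered libraries did not deviate together. At medians of 5 and 8 reads per gene in *Eef1g*-cKO, counting noise could hide a pairing, so this cannot decide whether the block applies. The control libraries of *Trmt112* differed from each other by more than counting error.

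*Srsf3*, a splicing factor that YTHDC1 recruits, had 40.8 and 27.6 FPKM in control and 5.87 and 12.9 FPKM in *Eef1g*-cKO. Its log2 fold change was −1.82 (limma adjusted p = 0.0587), and −1.55 and −2.10 without control replicate 1 or 2. The adjusted p of *Srsf3* was 0.00511 in edgeR, 0.0258 in DESeq2 and 0.0361 in limma with the replicate number as a block, for which no pairing was seen. In *Eef1g*-cKO the gene rested on 4 and 16 reads. *Mat2b*, the regulatory subunit of the enzyme that makes S-adenosylmethionine, had 31.6 and 34.2 FPKM in control and 13.8 and 9.77 FPKM in *Eef1g*-cKO. It fell by 1.42 on the log2 scale (limma adjusted p = 0.0479), on 7 and 9 reads in *Eef1g*-cKO. Its adjusted p was 0.0879 in DESeq2 and 0.0151 in edgeR. The limma change of *Mat2b* was −1.48 without control replicate 1 and −1.37 without control replicate 2.

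**Figure D4:**
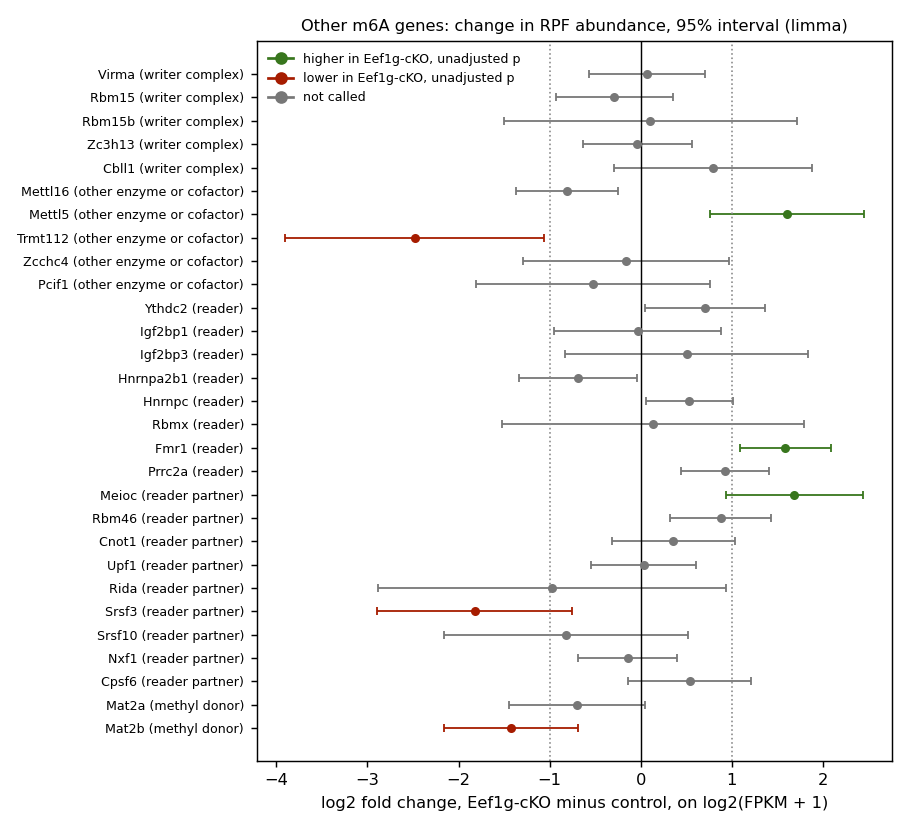
Log2 fold change of 29 genes of the wider m6A list (*Ahcy*, with no read in *Eef1g*-cKO, is left out), *Eef1g*-cKO minus control on log2(FPKM + 1), with 95% intervals from limma; green and red mark genes called higher and lower by unadjusted p, and dotted lines a log2 fold change of −1 and 1. *Meioc*, *Mettl5* and *Fmr1* lie to the right, at 1.58 to 1.68. *Trmt112* lies farthest to the left at −2.48, on 3 and 6 *Eef1g*-cKO reads.

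For 8 of the members, the gene with the most like profile was the one at the smallest Euclidean distance over log2(FPKM + 1) in the 4 libraries. These were *G3bp1* for *Mettl3*, *Rab10* for *Mettl14*, *1700018B24Rik* for *Wtap*, *Por* for *Ythdc1*, *Cetn2* for *Ythdf1*, *Taf5* for *Ythdf2*, *Yipf2* for *Ythdf3* and *Xrcc4* for *Alkbh5*. Among these 8 the distance was smallest for *Alkbh5*, at 0.0529, and largest for *Ythdf1*, at 0.218. With 4 libraries, these names describe level and direction only.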

How the data were processed

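RPFs of 4 libraries (2 control, 2 *Eef1g*-cKO) were analysed as 1 table deposited by the authors. The submitters' processing notes name cutadapt, Bowtie and STAR with the builds mm10 and hg38; versions, the read counter and the annotation are not given in the sources used here. FPKM were computed by the authors per kilobase of gene length and 1000000 counted reads. The signal columns deposited beside them are read counts scaled by library-specific size factors; 100% of values were whole multiples of the library's step (within 0.01), which gave back the reads. No gene listed had fewer than 10 reads in all. The authors' own fold changes, errors, p-values and mean counts were not used.

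The 10475 genes averaging 1 FPKM or more were compared on log2(FPKM + 1) with limma 3.58.1 (R 4.3.3, trended prior variance); pseudocounts shrink the change of low genes. Alternatives were other pseudocounts (0.1 and 5 FPKM), filters (none, and 5 FPKM), median centring, an untrended variance, edgeR 4.0.16 (TMM, quasi-likelihood, with and without filterByExpr), DESeq2 1.42.0 (both on the recovered reads), a replicate block and leaving out each library. edgeR called 705 of 8056 genes higher and 904 lower by adjusted p, and DESeq2 502 and 451 of 8450. The main limma fit, edgeR with filterByExpr and DESeq2 were run on simulated data, and the other settings were not. With 2 libraries against 2, an exact two-sided permutation test cannot give a p below 0.333. The libraries are called independent biological replicates, but whether each was 1 animal or a pool is not given in the sources used here, so p-values measure only the spread between these libraries. Intervals of reads are exact 95% Poisson intervals and cover counting error only, as PCR copies are not independent.

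Gene models and start codons came from RefSeq on GRCm38.p6, the transcript with the longest curated coding sequence; the authors' gene models may differ. Of the 9 members and 31 further genes, 3 (*Virma*, *Meioc* and *Rida*) were matched by an older symbol. The genes named were all members, *Eef1g*, *Ythdc2*, *Meioc* and *Rbm46*, genes of the wider list called by unadjusted p, and the nearest gene of each member, of which 1 is not reported here. The members and lists were chosen with earlier results of these data known.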

Additional observations from a re-analysis of the deposited data

How the results depend on the processing

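*Fto* stayed lower under every alternative tried, with log2 fold changes of −1.97 to −1.52 over the 10 alternatives that keep all libraries and −2.18 to −1.54 when each library was left out. Its unadjusted p passed in all 10 and its adjusted p in 7, over a range of 5.54e-04 to 0.0766. The count of members called lower by adjusted p was 0 with a pseudocount of 0.1 FPKM, without a filter on low values and with an untrended prior variance. Calls are not counted for fits with a library left out, since their variance comes from the other genotype alone. The sign turned for *Mettl3* (−0.19 without control replicate 1, up to 0.93 without the other libraries in turn), *Ythdf1* (−0.072 without *Eef1g*-cKO replicate 2, up to 0.36) and *Ythdf3* (−0.023 without control replicate 2, up to 0.71). Centring the libraries on their medians, which shifted *Eef1g*-cKO by 0.21 against control, moved the median of the members from 0.35 to 0.57. The members lying above control moved from 3 to 6 with centring. With each library left out the median ranged from 0.13 to 0.46, and 4 to 6 members lay above and 1 to 2 below. The share of all genes lying above or below was not taken under these settings, so these counts have no background beside them. In the wider list, here with *Ahcy*, genes called higher by adjusted p were 5 with centring and 0 with a pseudocount of 0.1 FPKM or an untrended variance. By unadjusted p they were also 5 with centring. Genes called lower by adjusted p were 0 with centring, no filter, a pseudocount of 0.1 FPKM or an untrended variance. They were 2 in DESeq2, and 3 in edgeR with or without its filter, with a mean of at least 5 FPKM or with a pseudocount of 5 FPKM. The share of all genes called was taken only for the main fit, edgeR with its filter and DESeq2. Counts of called genes under the other settings therefore have no background beside them. The labels give replicate numbers, but same-numbered libraries did not deviate together (correlation of their deviations −0.0080 across 10475 genes). At medians of 5 and 8 reads per gene in *Eef1g*-cKO, counting noise could hide a pairing, so this value cannot decide whether libraries were paired. With the replicate block, *Fto* kept an adjusted p of 0.0254 and 3 genes of the wider list were called lower by adjusted p. Ranking by reads per kilobase of coding sequence was chosen after seeing the data. Causes were not tested. Among the members, depth limits *Mettl3*, *Wtap*, *Ythdf3* and *Fto* most, with 9 to 25 reads in each *Eef1g*-cKO library.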
